A study of Mus musculus with 5 samples.

Results

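The data described here are the messenger RNA levels of 5 CC chemokine genes, Ccl2, Ccl7, Ccl11, Ccl8 and Ccl9, in mesenchymal cells of mouse hindlimb muscle before and after injury. The genes were taken by name from the 31055 genes of the count matrices, and all 5 were found. The study sorted GFP+ cells from the muscles around the tibia of Prx1Cre;mTmG mice on a C57Bl/6 background, 10 to 14 weeks old, and sequenced 5 libraries of 3′ ends by droplet capture, each made from 2 pooled mice. The groups were d0 (uninjured), d3 and d5 after a non-stabilized tibial fracture, and d3 and d5 after polytrauma, in which the same fracture was joined by compression injury of the muscles around it. All groups carried the same alleles. Prx1Cre is active in the mesenchyme of the limb bud, and mTmG turns a cell and its descendants from a red to a green membrane label, so that GFP marked a cell's history and not its present state. With 1 library for each condition there was no replicate, so values are given with counting intervals and without a test.

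The conditions of 2 libraries needed a choice. The library deposited as d5 post-fracture held 6915 barcodes and was taken as d3 post-polytrauma, and the library deposited as d3 post-polytrauma held 2001 barcodes and was taken as d5 post-fracture. The reason is that the cell numbers in the study's source data match the libraries in this order and not in the deposited one. The library taken as d5 post-fracture shared 944 barcodes with the d5 post-polytrauma library and 0 with each of the d0 and d3 libraries. In those 944 barcodes the median ratio of UMIs (unique molecular identifiers, 1 for each captured molecule), d5 post-fracture over d5 post-polytrauma, was 48.4. Every level at d5 post-fracture and d3 post-polytrauma rests on this choice, and the values under the deposited labels are given with the alternatives.

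Chemokines are small secreted proteins that bind G protein-coupled receptors on leukocytes and draw them along a gradient, and the CC family is named for a pair of adjacent cysteines near the start of the mature protein. Ccl2 and Ccl7 are ligands of Ccr2, the receptor that brings monocytes into injured muscle. Ccl11, or eotaxin, acts on Ccr3 of eosinophils. Mouse Ccl8 acts mainly on Ccr8, and Ccl9 acts on Ccr1 and is a known product of myeloid cells. Stromal cells of muscle, among them the fibro-adipogenic progenitors, are known sources of several of these ligands after damage.

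Ccl2, Ccl7, Ccl11 and Ccl8 lie near each other on the plus strand of chromosome 11, with another CC ligand gene, Ccl12, between Ccl11 and Ccl8, and Ccl9 lies apart, in the genome build GRCm38 (mm10) with GENCODE M21 gene models. Ccl2 (ENSMUSG00000035385) spans chr11:82035571-82037453, Ccl7 (ENSMUSG00000035373) chr11:82045712-82047525, Ccl11 (ENSMUSG00000020676) chr11:82057823-82062955 and Ccl8 (ENSMUSG00000009185) chr11:82115185-82116799, which together take 81.2 kb. Ccl9 (ENSMUSG00000019122) lies 1456 kb further on, on the minus strand, at chr11:83572919-83578636. Below is the coding sequence around the adjacent cysteine codons that name the family, with those codons in capitals and the introns removed. It shows what the genes share and how far they differ around it. The codons lie in exon 2 of Ccl2, Ccl7, Ccl11 and Ccl8 and in exon 3 of Ccl9.
Ccl2: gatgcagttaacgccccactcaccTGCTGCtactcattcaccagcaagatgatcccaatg
Ccl7: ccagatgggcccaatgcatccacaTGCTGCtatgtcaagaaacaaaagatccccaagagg
Ccl11: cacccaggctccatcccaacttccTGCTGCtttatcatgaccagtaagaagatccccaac
Ccl8: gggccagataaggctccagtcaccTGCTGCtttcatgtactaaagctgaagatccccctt
Ccl9: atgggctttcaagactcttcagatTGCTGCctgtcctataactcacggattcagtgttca
All 5 genes used the codons TGCTGC. The coding sequences of Ccl7 and Ccl11 were 67.7% identical and those of Ccl2 and Ccl9 48.9% identical. The longest run of bases shared by 2 members' transcripts was 23, between Ccl2 and Ccl7, and within the last 300 bases, where 3′ libraries read, it was 11. Between a member and any other CC ligand it was at most 25, shared by Ccl9 and Ccl6.

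After filters on cell quality and after leaving out cells with 3 or more UMIs of Tyrobp, an adaptor of myeloid cells, 1466 to 11915 cells remained in each library, with a median of 3642 UMIs in a cell at d0 and of 15769 to 34949 after injury. Levels are CPM, the UMIs of a gene when those of all cells of a library are scaled to 1000000, with exact 95% Poisson intervals, and shares of cells carry exact 95% Clopper-Pearson intervals. Both cover counting error only. The markers of the label were present: Prrx1, the limb mesenchyme factor, was at 124 to 275 CPM and Pdgfra, a receptor of fibro-adipogenic progenitors, at 46.7 to 158 CPM. The 11 hematopoietic markers summed to 7.93 to 18.4 CPM, with Ptprc at 0.154 CPM or less, in part because the Tyrobp cells had been left out. The d5 libraries had at most 3 barcodes in common with any d0 or d3 library, whereas libraries within each set shared 405 to 944. The labels do not say what this sharing reflects, so day 5 and a batch of libraries cannot be told apart. The median gene differed by −0.33 and −0.34 (log2) from d0 to d3 after fracture and polytrauma, and by 0.56 and 0.41 from d3 to d5, so that differences relative to this shift are given where it matters.

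The 5 genes carried nearly all CC ligand UMIs of these cells. They made up 99.0% of the UMIs of 21 CC ligand genes at d0, 98.3% and 98.4% at d3 after fracture and polytrauma, and 96.5% and 98.3% at d5. Their summed level was 3169 CPM at d0, 4642 CPM at d3 post-fracture, 3730 CPM at d3 post-polytrauma, 874 CPM at d5 post-fracture and 1350 CPM at d5 post-polytrauma. The sum was thus highest at d3 and lowest at d5, with d0 between them. The make-up changed more than the sum: Ccl11 held 42.7% of the 5 genes' UMIs at d0 and at most 5.07% after injury, Ccl2 led at d3 with 55.2% and 64.6%, and Ccl7 led at d5 with 66.4% and 54.8%.

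**Figure D1:**
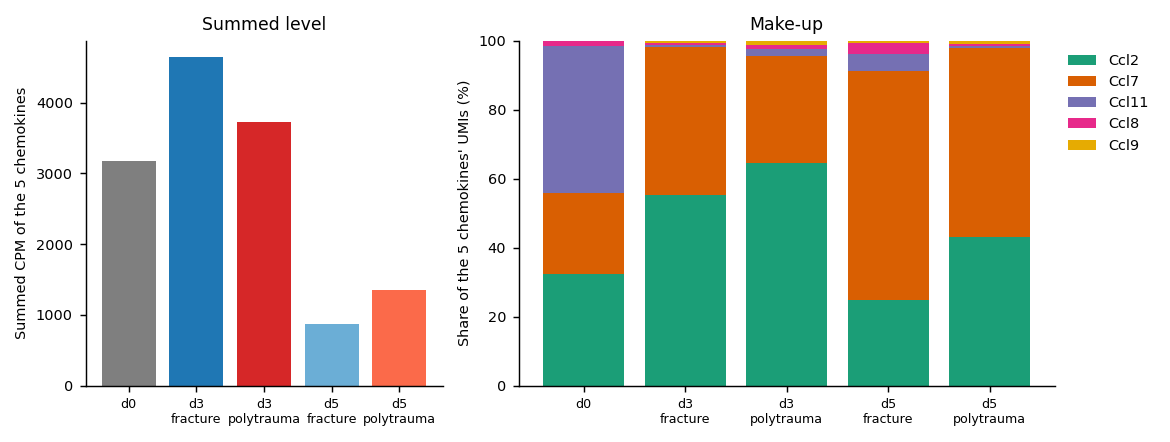
Left, summed CPM of the 5 chemokine genes in each library. Right, the share of those UMIs held by each gene, in percent. Ccl11 takes 42.7% at d0 and nearly vanishes from the bars after injury, Ccl2 leads at d3 and Ccl7 at d5.

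The ligands of Ccr2 were raised at d3 and low again at d5. Ccl2 was at 1027 CPM at d0 (95% interval 1012 to 1042), 2563 CPM at d3 post-fracture, 2411 CPM at d3 post-polytrauma, 216 CPM at d5 post-fracture and 583 CPM at d5 post-polytrauma. Ccl7 was at 741 CPM at d0, 1990 CPM at d3 post-fracture, 1155 CPM at d3 post-polytrauma, 581 CPM at d5 post-fracture and 740 CPM at d5 post-polytrauma. Both genes were highest at d3 post-fracture and lowest at d5 post-fracture, and the counting intervals of all neighbouring levels were apart except those of Ccl7 at d0 (728 to 754 CPM) and d5 post-polytrauma (736 to 743 CPM).

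**Figure D2:**
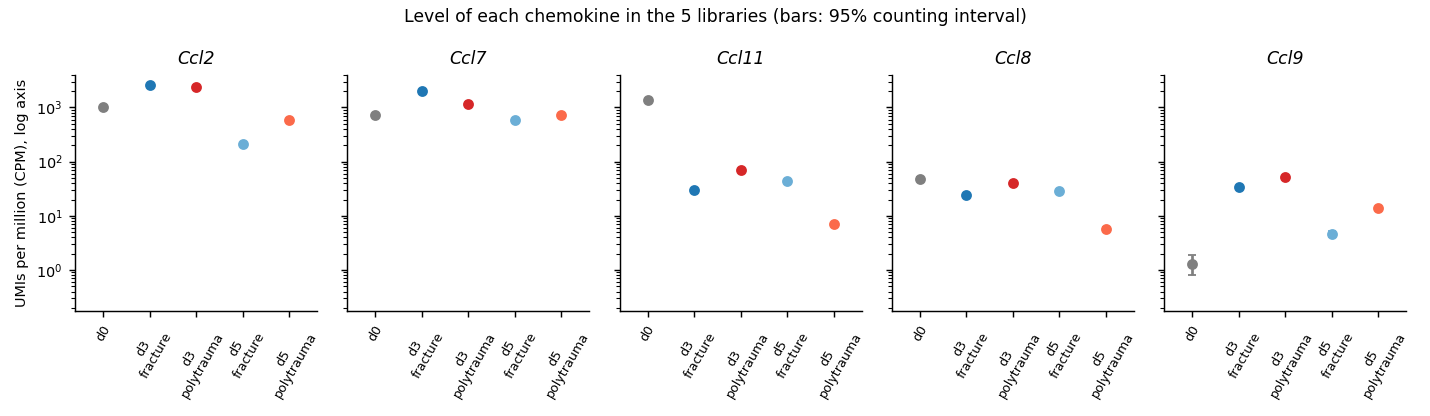
Level of each chemokine (CPM, log axis) in the 5 libraries, 1 point for each library with its exact 95% Poisson interval, which is often smaller than the point. Ccl2 and Ccl7 peak at d3, Ccl11 drops from 1352 CPM to at most 71.1 CPM after injury, and Ccl9 is lowest at d0 with 22 UMIs.

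The eotaxin Ccl11 went the other way. It was the most abundant of the 5 at d0 with 1352 CPM (1335 to 1369), and stood at 30.1 CPM at d3 post-fracture, 71.1 CPM at d3 post-polytrauma, 44.3 CPM at d5 post-fracture and 7.07 CPM at d5 post-polytrauma. Uninjured muscle was therefore far above every injured library. The level at d0 was 44.9 times that at d3 post-fracture (43.2 to 46.7) and 19.0 times that at d3 post-polytrauma (18.5 to 19.5).

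The less abundant genes Ccl8 and Ccl9 differed from each other. Ccl8 was at 47.9 CPM at d0, 24.4 CPM at d3 post-fracture, 41.1 CPM at d3 post-polytrauma, 28.4 CPM at d5 post-fracture and 5.77 CPM at d5 post-polytrauma. Its first 4 levels lay within 1.96-fold and the last stood apart. Ccl9 was at 1.26 CPM at d0 (22 UMIs, 0.791 to 1.91), 34.5 CPM at d3 post-fracture, 51.4 CPM at d3 post-polytrauma, 4.65 CPM at d5 post-fracture and 14.1 CPM at d5 post-polytrauma. Ccl9 was thus highest at d3, as Ccl2 was, but lowest at d0, and it was higher in polytrauma than in fracture on both days.

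The question of what injury did by d3 was read from the d3 libraries against d0, counting a gene where its CPM differed at least 2-fold. After fracture 3 of the 5 genes were at least 2-fold higher (Ccl2, 2.50-fold; Ccl7, 2.68-fold; Ccl9, 27.4-fold with an interval of 18.0 to 43.7), against 12.6% of the 12369 genes with a mean of at least 1 CPM. Ccl11 alone was at least 2-fold lower, against 30.3% of all genes. After polytrauma Ccl2 (2.35-fold) and Ccl9 (40.7-fold, 26.9 to 65.0) passed 2-fold upward, against 11.9% of all genes, and Ccl11 downward, against 30.1%. Ccl7 was 1.56-fold higher after polytrauma, which became a difference of 1.04 (log2) when libraries were scaled by the median of their gene ratios. Ccl8 was at 0.510 of its d0 level after fracture and 0.858 after polytrauma. The d3 comparisons share the d0 library, so their values are not separate evidence. Without cells that held 2 or more UMIs of endothelial or mural markers, the difference of Ccl2 after polytrauma was 0.92 (log2), under 2-fold, and that of Ccl8 after fracture was −1.03. This left out 23.6% of cells at d0 and 15.2% and 19.3% at d3 after fracture and polytrauma. The UMIs were counted before thinning, so a deeper cell was left out more easily.

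The 2 injuries were set side by side on each day. At d3 only Ccl11 differed 2-fold, being 2.36-fold higher after polytrauma (2.26 to 2.47), against 2.48% of all genes; the difference was 0.57 (log2), under 2-fold, when each cell weighed the same. Ccl2 was nearly level, at 0.941 of its fracture level after polytrauma (0.935 to 0.946). Ccl7 was lower after polytrauma, at 0.581 of its fracture level, and Ccl8 and Ccl9 were 1.68-fold and 1.49-fold higher. At d5 Ccl2 (2.70-fold, 2.65 to 2.75) and Ccl9 (3.03-fold, 2.65 to 3.47) were higher after polytrauma, against 1.85% of all genes. Ccl11 and Ccl8 were lower there, the fracture level being 6.27 times (5.87 to 6.71) and 4.92 times (4.55 to 5.31) the polytrauma level, against 10.4% of all genes. Ccl7 was 1.27-fold higher after polytrauma at d5. With 1 library for each injury, an effect of injury and a difference between libraries cannot be told apart.

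From d3 to d5 most of the genes were lower. After fracture Ccl2, Ccl7 and Ccl9 were at least 2-fold lower at d5, against 4.38% of all genes, the d3 level being 11.9 times, 3.42 times and 7.42 times the d5 level. Ccl11 and Ccl8 were 1.47-fold and 1.16-fold higher at d5, differences of −0.01 and −0.35 (log2) relative to the median gene. After polytrauma Ccl2, Ccl11, Ccl8 and Ccl9 were at least 2-fold lower at d5, against 4.31% of all genes, the d3 level being 4.13 times, 10.1 times, 7.13 times and 3.65 times the d5 level. Ccl7 was the exception, at 0.640 of its d3 level. Its difference was −1.06 (log2) relative to the median gene and −1.18 with median-of-ratios scaling, past 2-fold.

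How the UMIs were spread over cells was read after thinning every cell to 2000 UMIs, which left out 30 to 743 shallower cells in each library. A UMI of Ccl2 was found in 29.1% of thinned cells at d0 (27.7% to 30.6%), 78.5% at d3 post-fracture, 80.7% at d3 post-polytrauma, 14.3% at d5 post-fracture and 37.9% at d5 post-polytrauma. Unthinned shares were 35.5%, 92.5%, 95.4%, 40.3% and 63.9%. At d0, few cells held most of the gene: the 10% of cells with most Ccl2 held 81.3% of its UMIs, against 36.4% and 37.0% at d3. This was not particular to d0, since the share was 87.7% at d5 post-fracture, and it was 57.9% at d5 post-polytrauma. The variance of Ccl2 counts over cells was 18.9 times the mean at d0 and 6.63 and 6.61 times at d3. Ccl7 behaved alike, with a UMI in 31.9%, 78.6%, 67.9%, 32.6% and 47.2% of thinned cells in the same order of libraries and 76.2% of its d0 UMIs in the top 10% of cells. A UMI of Ccl2 and of Ccl7 was thus found in a minority of thinned cells in uninjured muscle and in most at d3. In the Tyrobp cells left out, unthinned, a UMI of Ccl2 was found in 13 of 20 cells at d3 post-fracture and 60 of 100 cells at d3 post-polytrauma, and one of Ccl7 in 16 and 49 of them. These cells were shallower. Ccl2 and Ccl7 of their own and free RNA from other cells cannot be told apart in them, so they set no background. Whether each mesenchymal cell with a UMI at d3 expressed the gene was not tested, and the shares are not read as shares of cells that did.

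**Figure D3:**
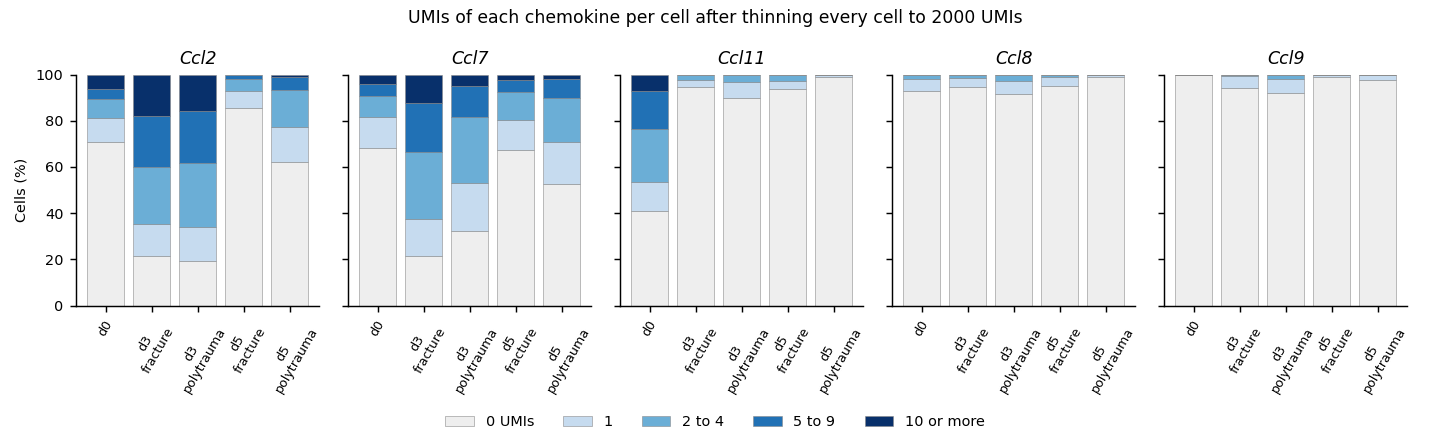
Share of cells (percent) by the number of UMIs of each chemokine, from 0 to 10 or more, after every cell was thinned to 2000 UMIs. At d0 most cells hold no Ccl2 while 6.41% hold 10 or more, and at d3 after fracture 78.5% hold at least 1. Ccl11 is broad only at d0, in 59.0% of cells.

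Ccl11 was found in 59.0% of thinned cells at d0 (57.4% to 60.6%), 5.29% at d3 post-fracture, 10.0% at d3 post-polytrauma, 6.27% at d5 post-fracture and 1.14% at d5 post-polytrauma. Unthinned shares were 65.4%, 13.0%, 30.5%, 17.5% and 4.85%. In the Tyrobp cells left out, a UMI of Ccl11 was found in 1 of 20 cells and 4 of 100 cells at d3 after fracture and polytrauma (5.00% and 4.00%) and in 1 of 26 cells at d5 after polytrauma (3.85%). Whether the Tyrobp cells made Ccl11 of their own was not tested, so they set no background. The median UMIs of these Tyrobp cells were 4809, 4028 and 6706, fewer than in the mesenchymal cells, and the 5 Tyrobp cells at d0 and 2 at d5 post-fracture were too few for a share. The unthinned d5 post-polytrauma share of 4.85% was near that of the Tyrobp cells, whose share rested on 1 cell, so it is not read as a share of cells that expressed Ccl11. Ccl8 was found in 7.16%, 5.28%, 8.22%, 4.87% and 1.07% of thinned cells, and in 10.2%, 16.7%, 21.0%, 20.0% and 4.83% without thinning. It was found in 7 of 20 Tyrobp cells at d3 post-fracture, unthinned, and in 8 of 100 at d3 post-polytrauma. At d5 post-polytrauma it was found in 6 of 26. Its level in these Tyrobp cells was 1559, 101 and 454 CPM, against 24.4, 41.1 and 5.77 CPM in the cells kept.

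Ccl9 was sparse everywhere, in 0.309% of thinned cells at d0, 5.74% at d3 post-fracture, 7.86% at d3 post-polytrauma, 1.11% at d5 post-fracture and 2.40% at d5 post-polytrauma. Without thinning the shares were 0.432%, 29.4%, 32.6%, 9.41% and 13.7%. In Tyrobp cells Ccl9 was at 1329, 349, 506, 29.7 and 421 CPM, and 100 of these cells, the most of any library, were in the d3 post-polytrauma library. The d0 value rested on 17 UMIs in 5 cells and the d5 post-fracture value on 2 UMIs in 2 cells. Barcodes with 500 to under 1000 UMIs were not counted as cells. They had passed the other quality filters, and Tyrobp cells were not left out of them. In them Ccl9 was at 58.1 and 110 CPM at d3 after fracture and polytrauma (19 and 38 UMIs), above the 34.5 and 51.4 CPM of the cells. It was above the cells too at d0 (21.8 CPM, 11 UMIs) and d5 post-fracture (38.2 CPM, 7 UMIs), but below them at d5 post-polytrauma (9.96 CPM, 5 UMIs). By the marker gates described further on, the level of Ccl9 at d3 post-fracture was 33.0 CPM in cells with division markers and 34.7 CPM in the rest. It was 33.7 and 34.6 CPM inside and outside the gate on Ly6a and Cd34. It was 7.50 against 34.7 CPM in mural-gated cells (6 UMIs) and 16.3 against 34.7 CPM in tenocyte-gated cells (17 UMIs). At d3 post-polytrauma it was 154 against 50.8 CPM in mural-gated cells and 81.6 against 48.1 CPM in cells with Hmox1, and 23.9 against 52.7 CPM in cells with Prg4 and 13.4 against 51.6 CPM in tenocyte-gated cells (6 UMIs). The mural-gated level at d3 post-polytrauma rested on 94 UMIs in 61 cells. After thinning, Ccl9 was found in 8.20% of these cells and in 7.86% of the rest, so the level was higher but the share was nearly the same. The level of Ccl9 was thus not the same in all gates. Ccl9 of the cells' own and free Ccl9 RNA from other cells cannot be told apart here, and its differences are levels in these libraries and no statement on which cells made it.

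For the other genes the same low barcodes held 912 CPM of Ccl2 at d0, 880 and 568 CPM at d3 after fracture and polytrauma, and 355 and 207 CPM at d5. They held 765 CPM of Ccl7 at d0, 868 and 371 CPM at d3, and 480 and 538 CPM at d5. The cells stood above these values at d3, and for Ccl2 below them at d5 post-fracture and within 1.13-fold of them at d0. For Ccl7 at d0 the cells, at 741 CPM, were just below. The low barcodes held 621 CPM of Ccl11 at d0, 9.17 and 11.6 CPM at d3, and 49.1 and 37.9 CPM at d5. Of Ccl8 they held 45.6 CPM at d0, 36.7 and 29.0 CPM at d3, and 21.8 and 41.8 CPM at d5. The cells were below these values for Ccl11 at d5, and for Ccl8 at d3 post-fracture and d5 post-polytrauma. After injury these low-barcode values rest on 3 to 21 UMIs. The part of free RNA in the levels and shares of Ccl2, Ccl7, Ccl11 and Ccl8 was not tested.

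Ccl2 and Ccl7 were found together in cells more often than the product of their shares in every library. Cells with both were 1.72 times the product of the shares at d0. They were 1.09 and 1.08 times at d3 after fracture and polytrauma, and 2.14 and 1.48 times at d5. Where most cells hold each gene, as at d3, this ratio has little room to rise, so it does not rank the libraries. Of thinned cells with Ccl2, 54.8% at d0, 85.9% at d3 post-fracture, 73.5% at d3 post-polytrauma, 69.8% at d5 post-fracture and 69.8% at d5 post-polytrauma also held Ccl7. Of those without Ccl2, 22.5%, 52.3%, 44.6%, 26.4% and 33.4% did. Across cells of a library, which share its depth and free RNA, Pearson's r of log counts between them was 0.45, 0.56, 0.46, 0.36 and 0.45. Among 2777 genes found in at least 5% of thinned cells of every library, Ccl7 was the most like Ccl2 (mean r of 0.46 over 5 libraries), followed by Cxcl1, a chemokine for neutrophils (0.38). These were the only genes with an r of at least 0.2 with Ccl2 in every library. Those most like Ccl7 were Ccl2, Cxcl1 (0.38) and Ptx3, a soluble pattern-recognition protein (0.26). The other members were found in enough cells of fewer libraries, so their values cannot be set beside these. No gene met the rule for Ccl11 (4 libraries, 2813 genes), Ccl8 (3 libraries, 2929 genes) or Ccl9 (2 libraries, 3385 genes), the highest mean r being 0.34, 0.25 and 0.07.

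Ccl11 and Ccl8 also overlapped, at lower levels. Cells with both were 1.43 times the product of the shares at d0, 3.35 and 2.54 times at d3 after fracture and polytrauma, 3.19 times at d5 post-fracture and 4.28 times at d5 post-polytrauma, where it rested on 6 cells. At d0, 84.5% of cells with Ccl8 held Ccl11, against 57.0% of the rest. Ccl8 and Ccl9 overlapped in 16 cells at d3 post-polytrauma, where the product of their shares gave 39.0. At least 2 of the 5 genes were found in 38.0% of thinned cells at d0, 70.9% and 65.1% at d3 after fracture and polytrauma, and 14.5% and 28.3% at d5.

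Which cells held the genes was read from gates, cells with at least 3 UMIs of named markers after thinning, which are ranges and not cell types. At d0, 702 cells (18.1%) passed a gate on 6 mural markers of pericytes and smooth muscle, with 58 more cells just below it at 2 UMIs and 24 just inside it at 3. These cells held 135 CPM of Ccl2, 99.2 CPM of Ccl7, 144 CPM of Ccl11 and 6.28 CPM of Ccl8, against 1232, 888, 1643 and 58.0 CPM in the rest. The 346 cells with tenocyte markers were also low, at 237 CPM of Ccl2 and 135 CPM of Ccl11, against 1110 and 1493 CPM. The chemokines of uninjured muscle thus lay mostly outside mural and tenocyte gates. The 225 cells of the gate on Hsd11b1, Cmklr1 and Mme held 2724 CPM of Ccl11 against 1271 CPM in the rest, with Ccl11 in 96.4% of them. The 111 cells of the gate on Dlk1, Trf and Saa1 held 2739 CPM of Ccl11. Ccl2 was highest at d0 in the 104 cells with Prg4, the lubricin gene (2824 against 960 CPM), and the 446 cells with Hmox1, the heme oxygenase gene (2148 against 875 CPM). In cells with Prg4 it was lower at d3, at 2095 and 2153 CPM after fracture and polytrauma. In cells with Hmox1 it was 3001 and 2336 CPM at d3. The higher level of Ccl2 at d3 over all cells was thus not seen in every gate.

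At d3 mural-gated cells no longer stood far below the rest in the level of Ccl2, but a smaller share of them held a UMI of it. Mural-gated cells held 2391 CPM at d3 post-fracture (108 cells) against 2566 CPM in the rest, and 1566 CPM at d3 post-polytrauma (61 cells) against 2416 CPM. Ccl2 was found in 54.6% of them against 79.0% of the rest at d3 post-fracture, and in 60.7% against 80.9% at d3 post-polytrauma. At d3 post-fracture 33 cells lay just below this gate at 2 UMIs and 11 just inside it at 3. At d3 post-polytrauma these were 60 and 20 cells. Tenocyte-gated cells at d3 post-fracture held 1248 against 2579 CPM. The gate on Ly6a and Cd34, surface genes of fibro-adipogenic progenitors, held 2423 against 2581 CPM. At d3 post-polytrauma both gates were above the rest, at 3213 against 2408 CPM in 39 tenocyte-gated cells and 2722 against 2316 CPM. Ccl2 was nevertheless found in fewer of those tenocyte-gated cells, 61.5% against 80.8% of the rest. At d5 post-fracture the 161 cells with Col2a1, the cartilage collagen gene, held 11.2 CPM of Ccl2 and 55.1 CPM of Ccl7, against 253 and 675 CPM in the rest. At d5 post-polytrauma the 89 such cells held 120 CPM of Ccl2 against 588 CPM. The 314 cells with C1qtnf3 at d5 post-fracture held 78.2 CPM of Ccl2 against 265 CPM. Cells with Col2a1 were thus low in both ligands of Ccr2 at d5.

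After injury Ccl8 and Ccl11 were higher in some gates than in the rest, although most of their UMIs lay outside the Pi16 and Stmn4 gate and the mural gate. Their levels and shares in the gate on Ly6a and Cd34 are given further on. The 94 cells of the Pi16 and Stmn4 gate at d3 post-fracture held 313 CPM of Ccl8 against 21.1 CPM in the rest (14.8-fold). The 51 such cells at d3 post-polytrauma held 689 against 38.0 CPM (18.1-fold). These cells held 13.4% and 7.43% of all Ccl8 UMIs of those libraries. The gate was 22.4% of cells at d0, where its Ccl8 was 59.7 against 44.4 CPM, and 0.365% to 3.62% of cells after injury. Ccl11 in this gate was 1563 CPM at d0, 220 CPM at d3 post-fracture, 272 CPM at d3 post-polytrauma, 209 CPM at d5 post-fracture and 52.3 CPM at d5 post-polytrauma, in each library above the rest of the cells, and the gate held 1.69% to 13.7% of Ccl11 UMIs in the injured libraries. Mural-gated cells, low in Ccl11 at d0, were above the rest in level later: 425 against 26.8 CPM at d3 post-fracture, 121 against 70.7 CPM at d3 post-polytrauma, 395 against 38.3 CPM at d5 post-fracture and 77.3 against 6.50 CPM at d5 post-polytrauma, from 340, 74, 333 and 117 UMIs. Ccl11 was found in 22.2%, 9.84%, 25.6% and 11.5% of these cells and in 4.95%, 10.0%, 5.67% and 1.04% of the rest. At d3 post-polytrauma the level was thus higher in the gate but the share of cells was not. At d0 the mural gate held 144 CPM of Ccl11, found in 12.5% of its cells. Within this gate the level was thus higher than at d0 in the fracture libraries and lower at d5 post-polytrauma. At d3 post-polytrauma its counting interval (95.2 to 152 CPM) overlapped that at d0 (131 to 158 CPM), so no direction is read there. The mural gate held 18.1% of cells at d0 and 0.983% to 2.99% after injury, and 1.02% to 14.6% of the Ccl11 UMIs of the injured libraries.

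**Figure D4:**
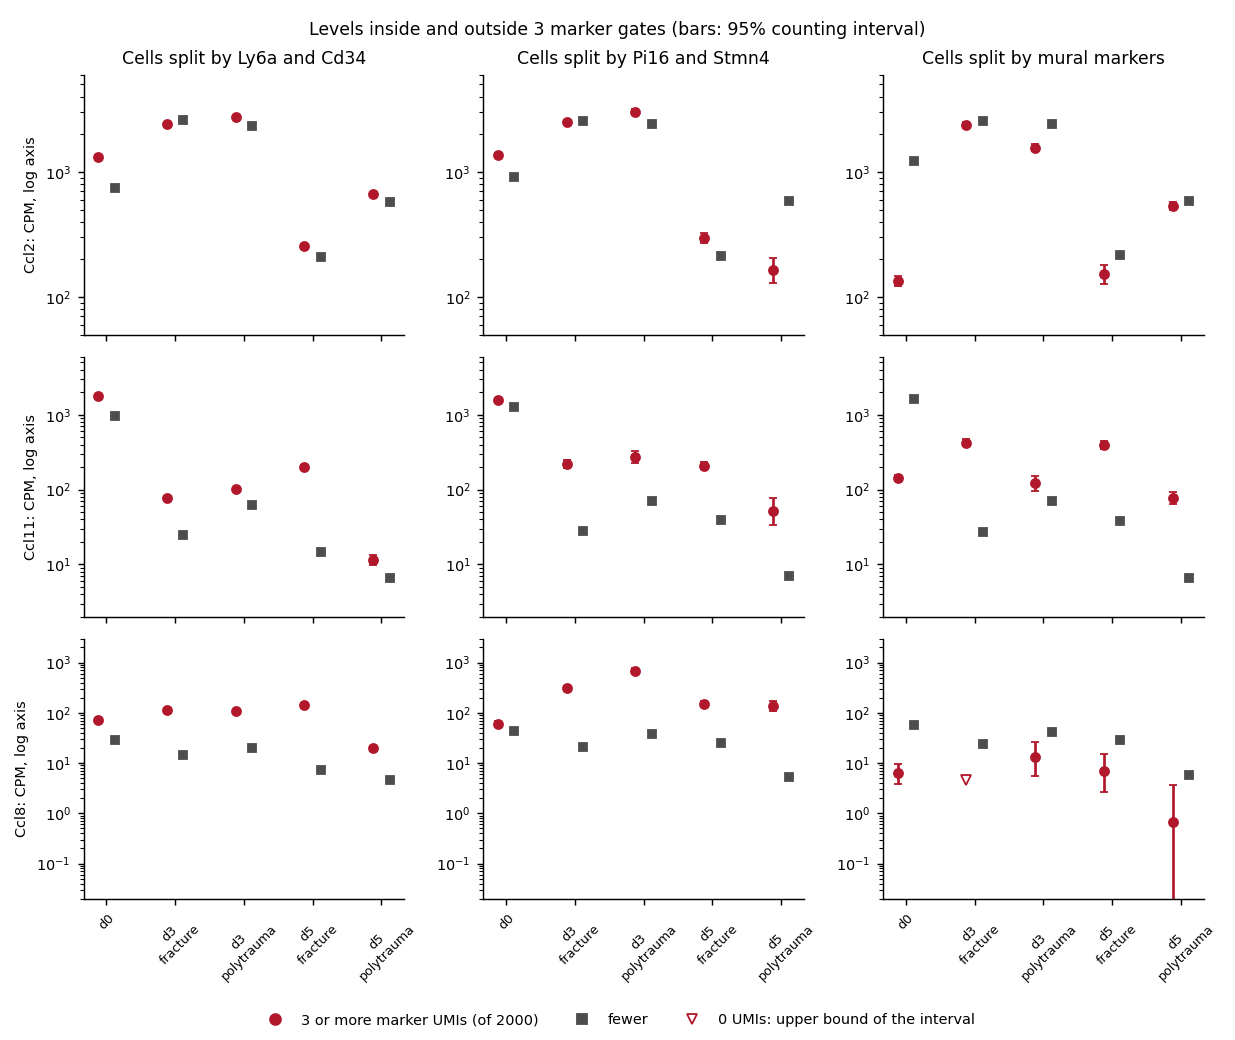
Levels of Ccl2, Ccl11 and Ccl8 (rows, CPM, log axis) by library, with exact 95% Poisson intervals. Red circles are cells with 3 or more UMIs, added over the markers named above each column, and grey squares the remaining cells. An open triangle is the upper bound where a gate held 0 UMIs. Ccl8 in the Pi16 and Stmn4 gate stands 14.8-fold and 18.1-fold above the rest at d3, and Ccl11 in mural-gated cells is below the rest at d0 and above it in the injured libraries.

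The gate on Ly6a and Cd34 allowed a comparison within 1 range of cells, with the limit that both genes were themselves lower after injury (Cd34 at 689 CPM at d0 and 42.7 to 99.9 CPM after). Within it Ccl2 was 1327 CPM at d0 and 2423 and 2722 CPM at d3 after fracture and polytrauma, a difference of 0.87 and 1.04 (log2), and Ccl7 was 922, 2416 and 1419 CPM. Ccl11 was 1784 CPM at d0 and 77.6, 101, 201 and 11.4 CPM in the injured libraries in order. Ccl8 was 70.7 CPM at d0, 112 and 108 CPM at d3, 140 CPM at d5 post-fracture and 19.8 CPM at d5 post-polytrauma. Outside the gate Ccl11 was 975 CPM at d0 and 24.7, 61.9, 14.6 and 6.66 CPM in the injured libraries in order. Ccl8 there was 28.2 CPM at d0 and 14.3, 20.2, 7.30 and 4.53 CPM after injury. The gate took 47.3% of cells at d0, with 68.5% of Ccl8 UMIs and 61.3% of Ccl11 UMIs. In the injured libraries it took a smaller part, 8.09% to 27.5% of cells. It held 26.9% to 78.3% of their Ccl8 UMIs and 12.6% to 72.1% of their Ccl11 UMIs. Whether like cells passed the gate in each library was not tested. Ccl8 in this gate was therefore higher at d3 than at d0, the opposite of its direction over all cells, and Ccl11 was lower after injury inside the gate as well. The same did not hold for Ccl11 in mural-gated cells of the fracture libraries, where it was higher than at d0.

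The other CC ligands were scarce as a sum, at 23.4 to 82.3 CPM in a library. Of 16 listed, 5 had a mean of at least 1 CPM; 2 were higher and 2 lower by 2-fold at d3 post-fracture, against 12.6% and 30.3% of all genes, and 2 were higher and 1 lower at d3 post-polytrauma, against 11.9% and 30.1%. Their median differences were 0.09 and 0.20 (log2) where all genes had −0.33 and −0.34. Ccl20, the ligand of Ccr6, was listed at 0 at d0 and was at 46.5 CPM at d3 post-fracture, 13.9 CPM at d3 post-polytrauma, 3.44 CPM at d5 post-fracture and 4.05 CPM at d5 post-polytrauma. Its level at d3 post-fracture was above those of Ccl9, Ccl11 and Ccl8 in that library (34.5, 30.1 and 24.4 CPM). Ccl26 was at 0 in every library. Receptors for these ligands were near the floor: Ccr1, Ccr2 and Ccr3 were at 0.136 CPM or less in every library, and Ccr8 and Ccr1l1 at 0. Of 15 receptor genes 3 passed the mean of 1 CPM over the 5 libraries, which include d0. At d3, 14 of the 15 were under 1 CPM in each injury. All 3 were 2-fold lower at d3 in both injuries, against 30.3% and 30.1% of all genes. A gene that passes the mean mainly through d0 is bound to be lower at d3, so this count is not read as a result. Ccrl2, an atypical receptor that binds chemerin, was at 101 CPM at d0 and at most 2.47 CPM after injury.

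Genes upstream of chemokines were counted in the same way at d3. Of 15 genes of the NF-kB pathway, which drives Ccl2 transcription, 0 were 2-fold higher and 5 were 2-fold lower at d3 in each injury, against 12.6% higher and 30.3% lower of all genes after fracture and 11.9% and 30.1% after polytrauma. The share that was lower was near that of all genes, with median differences of −0.61 and −0.70 (log2) where all genes had −0.33 and −0.34. Nfkbia, the inhibitor that NF-kB itself induces, was at 927 CPM at d0, 985 and 603 CPM at d3 and 355 and 398 CPM at d5. Across cells within a library, r between the summed NF-kB genes and Ccl2 was 0.15 at d0. It was 0.30 and 0.22 at d3 after fracture and polytrauma, and 0.26 and 0.27 at d5. The r with Ccl7 was 0.11 at d0, 0.24 and 0.22 at d3 and 0.28 and 0.27 at d5. That with Ccl11 was −0.03 to 0.10 and that with Ccl8 −0.01 to 0.11. The cause of these relations was not tested. Of 21 cytokine receptor and STAT genes, 2 were higher and 9 lower at d3 post-fracture, and 2 higher and 8 lower at d3 post-polytrauma, against the same shares of all genes. Il17rc, a receptor subunit for interleukin 17, was at 4.07 CPM at d0, 18.4 and 41.8 CPM at d3 and 19.7 and 28.9 CPM at d5, and Ifngr1, an interferon gamma receptor subunit, at 160 CPM at d0 and 39.6 to 47.0 CPM after injury.

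Immediate early genes, which tissue digestion can switch on and which can accompany chemokine induction, were measured beside these results because all cells were dissociated. Of 10 such genes 9 were 2-fold lower at d3 than at d0 in each injury, against 30.3% and 30.1% of all genes, and their summed level was 13951 CPM at d0, 4652 and 2850 CPM at d3 and 14303 and 8232 CPM at d5. Fos was at 4888, 1035, 392, 3725 and 2036 CPM, lowest in the d3 libraries, where Ccl2 was highest. Across d0 cells r between the summed immediate early genes and Ccl2 was −0.15, and Ccl2 was found in 24.9% of the top 25% of cells by these genes and in 35.2% of the bottom 25%. At d3 and d5 the r with Ccl2 was 0.05 to 0.12 and that with Ccl7 0.21 to 0.26. The part of digestion in the chemokine levels was not tested.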

How the data were processed

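Per the labels, GFP+ cells were sorted from muscle, captured with the Chromium Single Cell 3′ kit v.2 and sequenced. The authors deposited raw UMI counts for each gene and barcode against mm10. The matrix headers name Cell Ranger 3.1.0, whereas the study's methods name another version, and the submitters' processing notes list Seurat 3.1.2. Intervals come from SciPy 1.17.1 and no replicate test was possible. Cells with 350 to 8000 genes, under 20% mitochondrial UMIs and at least 1000 UMIs were kept, cells with at least 3 Tyrobp UMIs were left out (153 in all), and counts were summed for each library (17424394 to 201964927 UMIs) and scaled to CPM. Differences are on the log2(CPM + 1) scale, which understates the change of low genes. A gene was counted at a linear ratio of 2 or more. No doublet caller was run; the upper limit on genes and an alternative without the top 5% of cells by UMIs stood for it. The members and lists were chosen with earlier results of these data known. Of each list the text names up to 5 genes with a mean of at least 10 CPM and the widest range, and genes at 0 in all libraries; other genes were named after their values were seen. Symbols with more than 1 identifier were taken at the one on a reference chromosome of GENCODE M21. The scripts were tested on simulated data.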

Additional observations from a re-analysis of the deposited data

How the results depend on the processing

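No paired analysis was possible because each condition had 1 library. Of the 19 calls at 2-fold among 30 differences, all 19 held with Tyrobp cells kept, with every cell holding a Tyrobp UMI left out, without a minimum of UMIs, with at least 2000 UMIs, without the top 1% of cells by the gene or the top 5% by UMIs, with median-of-ratios scaling and without shared barcodes. All 19 held too in an alternative chosen after seeing the data, which kept a shared barcode only in a library where its UMIs were 10 times those elsewhere or more. Under the deposited labels 10 held and 4 others were gained: members higher and lower were then 1 and 2 for d3 post-polytrauma against d0, 0 and 3 for d3 post-polytrauma against d3 post-fracture, 1 and 0 for d5 post-fracture against d3 post-fracture, 2 and 2 for d5 post-polytrauma against d3 post-polytrauma, and 0 and 4 for d5 post-polytrauma against d5 post-fracture. The log2 difference of Ccl2 was then −2.24 for d3 post-polytrauma against d0, 1.43 for d5 against d3 post-polytrauma and −2.05 between the d5 libraries, and that of Ccl9 was 0.56 for d5 against d3 post-fracture, 1.42 for d5 against d3 post-polytrauma and −1.80 between the d5 libraries. Without endothelial and mural marker cells 2 members were lower at d3 post-fracture against d0 and 1 was higher at d3 post-polytrauma against d0. This alternative left out 15.2% to 51.6% of the cells of a library. With each cell weighted equally 0 members were higher at d3 post-polytrauma against d3 post-fracture, and without shared barcodes 1 was higher at d5 post-fracture against d3 post-fracture (Ccl11, 1.05). The cause of these shifts was not tested, except that the deposited labels exchange 2 libraries by construction. The d5 post-fracture library had 1466 cells, of which 868 had a barcode also found in another library.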
